A study of Mus musculus with 16 samples.

Results

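Cytosolic ribosomal protein genes were taken as the gene rows whose symbol was Rpl or Rps followed by a digit, together with Rplp0, Rplp1, Rplp2 and Rpsa, and without symbols holding -ps or starting with Rps6k. The rule gave 86 of 32285 gene rows, and left out 5 pseudogene names and 10 kinase names. Of the 86 members, 46 encode proteins of the large subunit and 31 encode proteins of the small subunit. Another 7 are named as copies of a subunit gene (Rpl22l1, Rps27l, Rpl36al, Rpl39l, Rpl3l, Rpl10l and Rps27rt), and Rpl7l1 and Rps19bp1 match by name only. Counts were high for most members, with 59 above 1000 CPM in the pooled cells, 2 under 1 CPM and 1 without any count. CPM are a gene's counts scaled to the same total in every sample.

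The cytosolic ribosome reads messenger RNA on its small subunit and joins amino acids on its large subunit, and each ribosomal protein is in general present once per ribosome, apart from the proteins of the acidic stalk. The genes lie apart in the genome but are made in step, and a surplus protein without its partners is degraded. Ribosomal protein mRNAs typically begin with a 5′ terminal oligopyrimidine (TOP) tract, a C followed by further pyrimidines, through which mTORC1 and the RNA-binding protein LARP1 control their translation and stability.

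Messenger RNA was counted by 3′ single-cell RNA-Seq in bone marrow stromal cell cultures from 12-week-old male C57BL/6J littermates, after 21 days in osteoblastic medium with 10 mM bGP. All mice carried Fgf23 alleles with a floxed first exon. WT (Dmp1+/+ Fgf23 fl/fl Dmp1-cre-) had both genes intact, and Fgf23cKO (Dmp1+/+ Fgf23 fl/fl Dmp1-cre+) carried Cre under the Dmp1 promoter, which is active mainly in osteocytes and mature osteoblasts. Dmp1KO (Dmp1-/- Fgf23 fl/fl Dmp1-cre-) lacked Dmp1 in the whole animal, and Dmp1KO/Fgf23cKO (Dmp1-/- Fgf23 fl/fl Dmp1-cre+) combined both. For each genotype, 3 cultures with a tag of their own were pooled in 1 droplet reaction. Reaction and genotype therefore cannot be told apart, and p values measure only the spread between cultures of 1 reaction. A 4th sample per genotype held untagged cells of the same pool, which were kept out of the main tests and entered as replicates only in 1 alternative. The first Dmp1KO culture was not analysed here, which left 11 tagged cultures: 3 WT, 3 Fgf23cKO, 2 Dmp1KO (numbers 2 and 3) and 3 Dmp1KO/Fgf23cKO.

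The 30 bases around the annotated transcription start are shown for members on which the results below turn, so that the start sites of short and long members can be set side by side. They are given 5′ to 3′ on the strand of the gene, from RefSeq on build GRCm38.p6, with the start at base 16. Capitals mark a TOP tract, read here as a C within 5 bases of the start that opens a run of at least 6 pyrimidines. A window without capitals holds none by that rule, which says nothing of the mRNA's real first base. Where RefSeq gives several starts, one with a tract was used, for all genes alike.
Rps28, small subunit, chr17:33824548-33824577, minus strand: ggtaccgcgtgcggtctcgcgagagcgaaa
Rpl39, large subunit, chrX:37085208-37085237, minus strand: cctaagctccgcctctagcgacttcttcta
Rpl38, large subunit, chr11:114668565-114668594, plus strand: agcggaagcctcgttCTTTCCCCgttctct
Rps27, small subunit, chr3:90213634-90213663, minus strand: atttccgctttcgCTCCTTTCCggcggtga
Rps27rt, retrocopy of Rps27, chr9:114982725-114982754, minus strand: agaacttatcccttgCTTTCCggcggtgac
Rps6, small subunit, chr4:86857353-86857382, minus strand: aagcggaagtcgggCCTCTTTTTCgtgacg
Rplp0, acidic stalk, chr5:115559452-115559481, plus strand: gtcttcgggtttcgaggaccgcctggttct
Rpl22l1, copy of Rpl22, chr3:28805493-28805522, plus strand: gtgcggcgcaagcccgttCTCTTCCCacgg
Rpl39l, copy of Rpl39, chr16:10170213-10170242, plus strand: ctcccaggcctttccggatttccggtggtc

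Promoter windows, from 250 bases before to 50 after the start, were held for 66 of the 86 members. A TOP tract was found in 27 of them, or 40.91%, against 11.95% of 27025 genes. The letters CGGAAG, searched on both strands, stood in 66.67% of member windows and in 18.78% of all windows, and GGGCGG in 62.12% and 38.2%. AAGATGGC was present in 9.091% and 3.19%, and TATAAA in 10.61% and 15.67%. The short members Rps28 and Rpl39 and the long member Rplp0 had no tract in these windows, whereas Rpl38 and Rps6 had one. All 86 members were placed on GENCODE M21 (GRCm38), over 19 chromosomes, with coding lengths between 75 and 1257 bases and a median of 453.

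In all, 17793 cells were counted, 14577 of them tagged, and they formed 20 clusters when the members themselves were left out of the clustering. Tagged cultures held between 9518928 and 72482185 unique molecular identifiers (UMIs). The median per cell was 7137 to 7276 UMIs in WT cultures and 20016 to 34988 in the others, so depth moved with genotype. Mitochondrial transcripts took 2.89 to 3.15% of UMIs in WT, 4.25 to 4.41% in Fgf23cKO, 3.15 to 3.24% in Dmp1KO and 4.44 to 4.55% in Dmp1KO/Fgf23cKO. Malat1, a nuclear RNA, took 2.42 to 2.46%, 1.39 to 1.57%, 1.13 to 1.16% and 1.29 to 1.31%, in the same order. Samples of 1 genotype shared no cell barcode in 21 pairs, and samples of different genotypes shared 35 barcodes over 84 pairs. Dmp1 stood at 27.3 to 108 CPM in WT cultures and at 7.55 to 65.0 in Fgf23cKO, at 0 and 0.0477 in Dmp1KO and at 1.32 to 2.16 in Dmp1KO/Fgf23cKO, in the direction of the labels. Fgf23 gave between 0 and 8 UMIs per culture, too few to check the floxed allele.

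The members took the largest part of a cell's transcripts in Dmp1KO cultures and the smallest in Dmp1KO/Fgf23cKO cultures. Over all cells, the WT cultures gave 12.60, 12.05 and 12.58% of UMIs, the Fgf23cKO cultures 11.52, 11.44 and 11.79%, the 2 Dmp1KO cultures 15.05 and 14.94%, and the Dmp1KO/Fgf23cKO cultures 9.80, 10.17 and 10.31%. The 4 genotypes did not overlap. The untagged samples gave 12.68, 12.11, 15.81 and 11.21%. Such a score over chosen members is a description, without a test, and says nothing of the amount of RNA per cell.

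The same order held within the largest class, the macrophage-like cells, named from macrophage markers, of which each tagged culture held 233 to 1437. They made up 7748 of the 14577 tagged cells, although the cultures were of stromal cells. The members took 11.3% ± 0.151 (SD, n = 3) of UMIs in WT, 9.84% ± 0.413 (n = 3) in Fgf23cKO, 14.9 and 14.4% in the 2 Dmp1KO cultures and 8.73% ± 0.120 (n = 3) in Dmp1KO/Fgf23cKO. No 2 genotypes overlapped. The 13 macrophage markers themselves took 3.64 to 3.80% of UMIs in WT, 4.34 to 4.38% in Fgf23cKO, 3.64 to 3.72% in Dmp1KO and 4.24 to 4.30% in Dmp1KO/Fgf23cKO, and their part in the result was not tested.

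Different clusters made up this class in the genotypes. Cluster 1 held 79.6% of the WT cells, cluster 0 held 66.3% of the Fgf23cKO and 86.9% of the Dmp1KO/Fgf23cKO cells, and the Dmp1KO cells were spread over clusters 5, 0 and 7 with 33.8, 31.3 and 30.4%. Within cluster 0, which held 59 WT cells, the share was 8.67% ± 0.676 in WT, 9.32% ± 0.165 in Fgf23cKO, 11.2 and 11.4% in Dmp1KO and 8.49% ± 0.137 in Dmp1KO/Fgf23cKO. Fgf23cKO thus stood above WT there, and Dmp1KO/Fgf23cKO overlapped WT. Within cluster 4, the Dmp1KO cultures, at 12.3 and 12.7%, overlapped WT at 12.5% ± 0.324, while Fgf23cKO was at 10.8% ± 0.588 and Dmp1KO/Fgf23cKO at 9.83% ± 0.388. Dmp1KO was above Dmp1KO/Fgf23cKO in both clusters. Within cluster 1 the WT cultures lay between 10.9 and 11.2%, the Fgf23cKO cultures between 9.94 and 10.98% and the Dmp1KO cultures at 10.1 and 13.1%. Within cluster 5 WT was at 15.2% ± 1.95 (13.6 to 17.3), around the Dmp1KO cultures at 15.0 and 15.3%. Some genotypes that stood apart over the whole class thus overlapped within a cluster, while Dmp1KO stayed above WT in cluster 0. Cluster 1 held 26 of the Dmp1KO cells and cluster 5 held 50 of the WT cells, so those overlaps rest on few cells.

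In macrophage-like cells of matched depth, between 10000 and 20000 UMIs, the WT cultures gave 11.4, 11.6 and 11.7%, the Dmp1KO cultures 13.7 and 12.999%, the Fgf23cKO cultures 8.34, 8.56 and 9.40%, and the Dmp1KO/Fgf23cKO cultures 7.06, 7.06 and 7.15%. The order of the genotypes was unchanged at this depth. Few Fgf23cKO cells (10 to 17 per culture) and Dmp1KO/Fgf23cKO cells (26 to 30) lay in that window. Pooled over cultures, cells with 20000 to 40000 UMIs gave 10.5% in WT (36 cells) and 15.5% in Dmp1KO (838 cells). With 5000 to 10000 UMIs, however, WT was at 11.5% (1633 cells) and Dmp1KO at 10.6% (209 cells). With 2500 to 5000 UMIs they were at 10.03% (681 cells) and 10.04% (39 cells). Of these windows, Dmp1KO thus stood clearly above WT only in those from 10000 UMIs up.

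**Figure D1:**
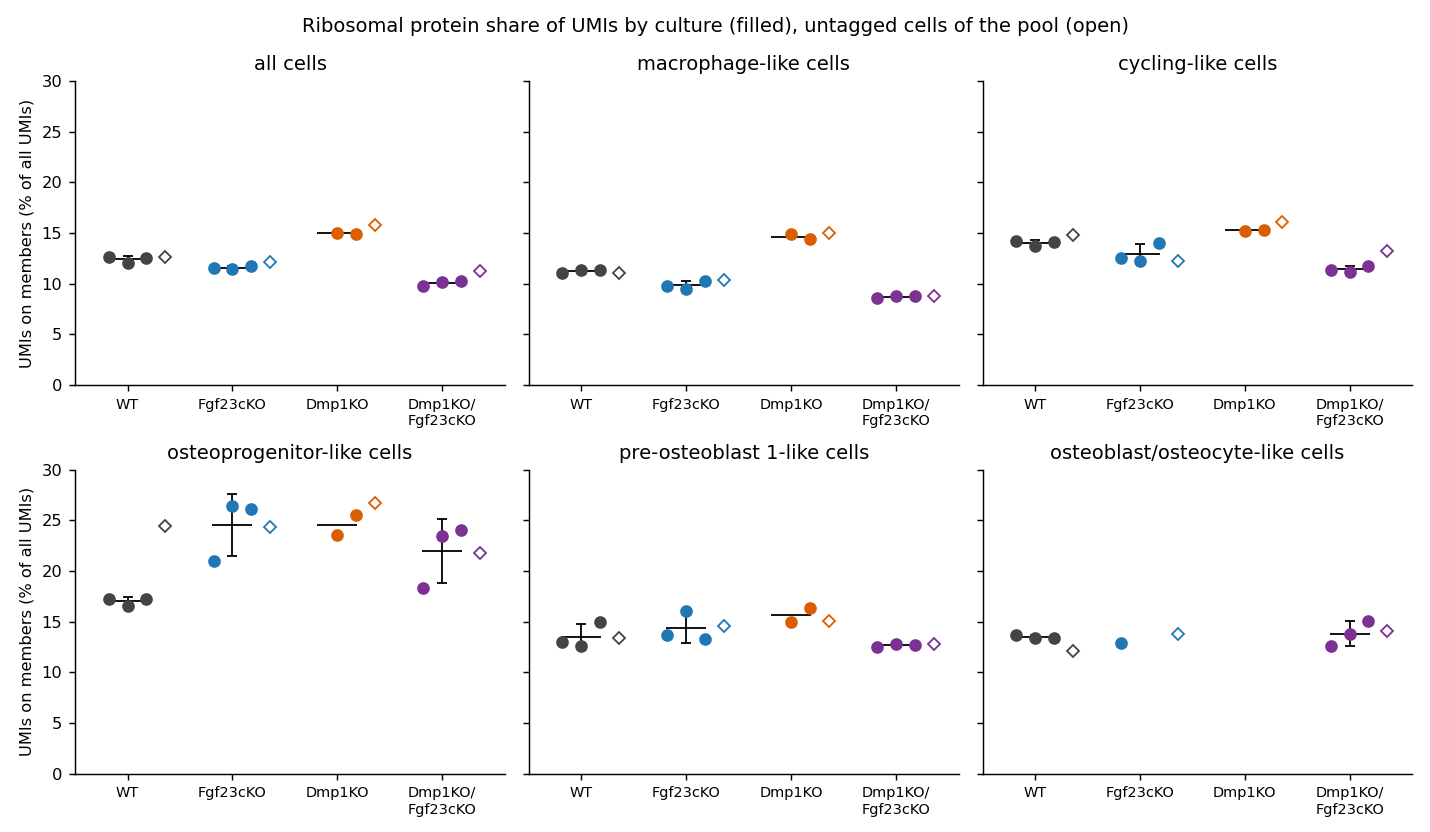
Ribosomal protein share in percent of UMIs (vertical axis) by genotype (horizontal axis), in 6 panels: all cells and the macrophage-, cycling-, osteoprogenitor-, pre-osteoblast 1- and osteoblast/osteocyte-like cells. Filled points are tagged cultures, open diamonds untagged cells, and bars the mean ± SD where 3 cultures were summed; Dmp1KO is the highest genotype in macrophage-like cells, at 14.9 and 14.4%, while in osteoprogenitor-like cells the WT cultures are the lowest.

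The members took a larger share of UMIs in the skeletal classes and in the cycling-like cells than in the macrophage-like cells of the same culture. The share was higher in osteoprogenitor-like cells by 10.99 percentage points on average (5.26 to 16.9), in pre-osteoblast 1-like cells by 3.13 points (0.0820 to 6.59), and in cycling-like cells by 2.45 points (0.298 to 3.76), each in 11 of 11 cultures. In osteoblast/osteocyte-like cells it was higher by 3.6 points in 7 of 7 cultures with at least 10 such cells. These differences were not tested, as they are a score over chosen members.

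In cycling-like cells the genotypes kept the order of the macrophage-like cells, with 14.0% ± 0.256 in WT, 12.9% ± 0.979 in Fgf23cKO, 15.2 and 15.4% in Dmp1KO and 11.4% ± 0.313 in Dmp1KO/Fgf23cKO, although Fgf23cKO overlapped WT. Osteoprogenitor-like cells stood apart from that order. There the WT cultures gave 17.3, 16.6 and 17.3%, the Fgf23cKO cultures 21.0, 26.4 and 26.1%, the Dmp1KO cultures 23.6 and 25.5%, and the Dmp1KO/Fgf23cKO cultures 18.3, 23.5 and 24.1%. All 8 knockout cultures were above the 3 WT cultures. The untagged WT cells of this class, however, gave 24.5%, within the range of the knockouts. The class held 19 to 68 cells per culture with a median of 1685 to 7212 UMIs, and the macrophage markers took 0.575 to 1.74% of its UMIs in WT cultures, 0.178 to 0.867% in Fgf23cKO, 0.479 to 1.11% in Dmp1KO and 0.270 to 0.730% in Dmp1KO/Fgf23cKO. Mitochondrial transcripts took 3.95 to 5.36% in WT and 8.40, 5.42 and 6.70% in Fgf23cKO, 5.21 and 4.14% in Dmp1KO and 9.93, 9.08 and 9.30% in Dmp1KO/Fgf23cKO. Malat1 took 1.62 to 2.53% in WT, 0.0196 to 0.280% in Fgf23cKO, 0.322 to 0.361% in Dmp1KO and 0.0338 to 0.154% in Dmp1KO/Fgf23cKO. It thus moved with the split between WT and the knockouts. The part of these values in the result was not tested. In cells of this class with 1000 to 2500 UMIs, pooled over cultures, the share was 22.3% in WT (31 cells), 26.6% in Dmp1KO (33 cells) and 24.8% in Dmp1KO/Fgf23cKO (32 cells), and with 2500 to 5000 UMIs it was 21.6% (21 cells), 32.5% (29 cells) and 24.9% (34 cells). WT was the lowest in both windows, and too few Fgf23cKO cells lay in either to give a value.

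Single members were then compared between genotypes with edgeR's quasi-likelihood test on UMI counts summed per culture and class, at an adjusted p under 0.1. Of the 86 members, 84 passed the filter on low counts, and Rpl10l and Rpl3l did not. Values in CPM are compared only between samples for the same gene. They are scaled to the total alone, whereas the fold changes also use TMM factors, which were 0.895 and 0.912 for the Dmp1KO cultures and 1.00 to 1.05 for the others in macrophage-like cells. Reads of these genes can be shared with near-identical pseudogenes, so the level of any 1 member is uncertain, and Rps27rt cannot be told apart from Rps27 with certainty.

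In macrophage-like cells of Dmp1KO compared with WT, 72 of 84 members were higher and 6 were lower, with a median log2 fold change of 0.80, while 33.6% of 12909 genes tested were higher, 31.3% were lower and the median of all genes was 0.01. Both subunits moved alike, with 42 of 46 large-subunit members higher (median 0.87) and 26 of 31 small-subunit members higher (median 0.87). Fgf23cKO compared with WT gave 33 members higher and 34 lower, where 24.5 and 23.3% of all genes were called. Dmp1KO/Fgf23cKO compared with WT gave 25 higher and 46 lower, against 28.7 and 29% of all genes. These 3 comparisons share the WT cultures. Nearly every member was lower with both genes targeted than with Dmp1 alone: in Dmp1KO/Fgf23cKO compared with Dmp1KO, 83 of 84 members were lower, none was higher and the median was -0.94, against 32.1% lower and 26.8% higher among all genes. The exception was Rpl39l, with an adjusted p of 0.2051.

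The members that rose most in Dmp1KO were long ones. Rpl7, a large-subunit protein (chr1:16101295-16104662, minus strand, coding length 810), was at 326, 327 and 322 CPM in WT, 567, 551 and 592 in Fgf23cKO, 972 and 933 in Dmp1KO, and 567, 577 and 580 in Dmp1KO/Fgf23cKO. All knockout cultures lay above all WT cultures, and Dmp1KO lay above the other knockouts. Against WT its log2 fold change was 1.71 (SE 0.045, adjusted p = 2.384e-15) in Dmp1KO, 0.79 (SE 0.042, adjusted p = 8.594e-11) in Fgf23cKO and 0.77 (SE 0.042, adjusted p = 3.688e-11) in Dmp1KO/Fgf23cKO.

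Rps2, which lines the path by which mRNA enters the small subunit (chr17:24718116-24721929, plus strand, coding length 879), was at 743, 712 and 734 CPM in WT, 1262, 1186 and 1415 in Fgf23cKO, 2111 and 1985 in Dmp1KO, and 1171, 1199 and 1225 in Dmp1KO/Fgf23cKO. Its neighbour at the mRNA entry, Rps3, was at 488 to 512 CPM in WT, 772 to 845 in Fgf23cKO, 1354 and 1312 in Dmp1KO, and 807 to 848 in Dmp1KO/Fgf23cKO. For both genes the WT cultures were the lowest and the Dmp1KO cultures the highest, without overlap. In Dmp1KO compared with WT, Rps2 rose by 1.65 (SE 0.058, adjusted p = 8.764e-14) and Rps3 by 1.58 (SE 0.048, adjusted p = 1.359e-14) on the log2 scale. Rpl3, which lies near the peptidyl transferase centre (chr15:80077791-80091868, minus strand, coding length 1209), went from 384, 388 and 391 CPM in WT to 972 and 920 in Dmp1KO, with 648, 650 and 685 in Fgf23cKO and 605, 617 and 627 in Dmp1KO/Fgf23cKO.

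Some of the shortest members fell. Rps29, a zinc-binding protein of the small-subunit head (chr12:69157722-69159186, minus strand, coding length 168), was at 9079, 9697 and 9749 CPM in WT, 5243, 5215 and 5346 in Fgf23cKO, 5069 and 5015 in Dmp1KO, and 3821, 3859 and 3763 in Dmp1KO/Fgf23cKO. Every knockout culture lay below every WT culture. Its log2 fold change against WT was -0.87 (SE 0.038, adjusted p = 8.641e-12) in Fgf23cKO, -0.76 (SE 0.043, adjusted p = 4.236e-11) in Dmp1KO and -1.37 (SE 0.039, adjusted p = 9.858e-15) in Dmp1KO/Fgf23cKO.

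Rps28, another small-subunit protein (chr17:33819027-33824562, minus strand, coding length 207), was at 3764, 3868 and 3953 CPM in WT, 1917, 1869 and 1990 in Fgf23cKO, 2144 and 2101 in Dmp1KO, and 1371, 1391 and 1379 in Dmp1KO/Fgf23cKO. The untagged samples of the same order gave 3695, 2032, 2146 and 1437. WT was again the highest, with no overlap. Rps28 fell by 0.71 (SE 0.044, adjusted p = 1.212e-10) in Dmp1KO, by 1.02 (SE 0.039, adjusted p = 1.344e-12) in Fgf23cKO and by 1.53 (SE 0.039, adjusted p = 2.826e-15) in Dmp1KO/Fgf23cKO, on the log2 scale against WT.

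Rpl39, which lines the exit tunnel for the new protein chain (chrX:37082520-37085402, minus strand, coding length 153), was at 3302, 3544 and 3575 CPM in WT, 1860, 1830 and 1903 in Fgf23cKO, 2728 and 2613 in Dmp1KO, and 1411, 1448 and 1427 in Dmp1KO/Fgf23cKO. Rpl38, known from a mouse skeletal patterning mutant, was at 2453, 2620 and 2746 CPM in WT, 1646, 1583 and 1724 in Fgf23cKO, 2249 and 2205 in Dmp1KO, and 1182, 1199 and 1238 in Dmp1KO/Fgf23cKO. Rpl39 was lower than WT in all 3 knockouts, while Rpl38 in Dmp1KO had a log2 fold change of -0.07 (SE 0.052, adjusted p = 0.2619). In Dmp1KO/Fgf23cKO compared with WT, Rpl39 fell by 1.33 and Rpl38 by 1.16 on the log2 scale (SE 0.043 and 0.047).

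**Figure D2:**
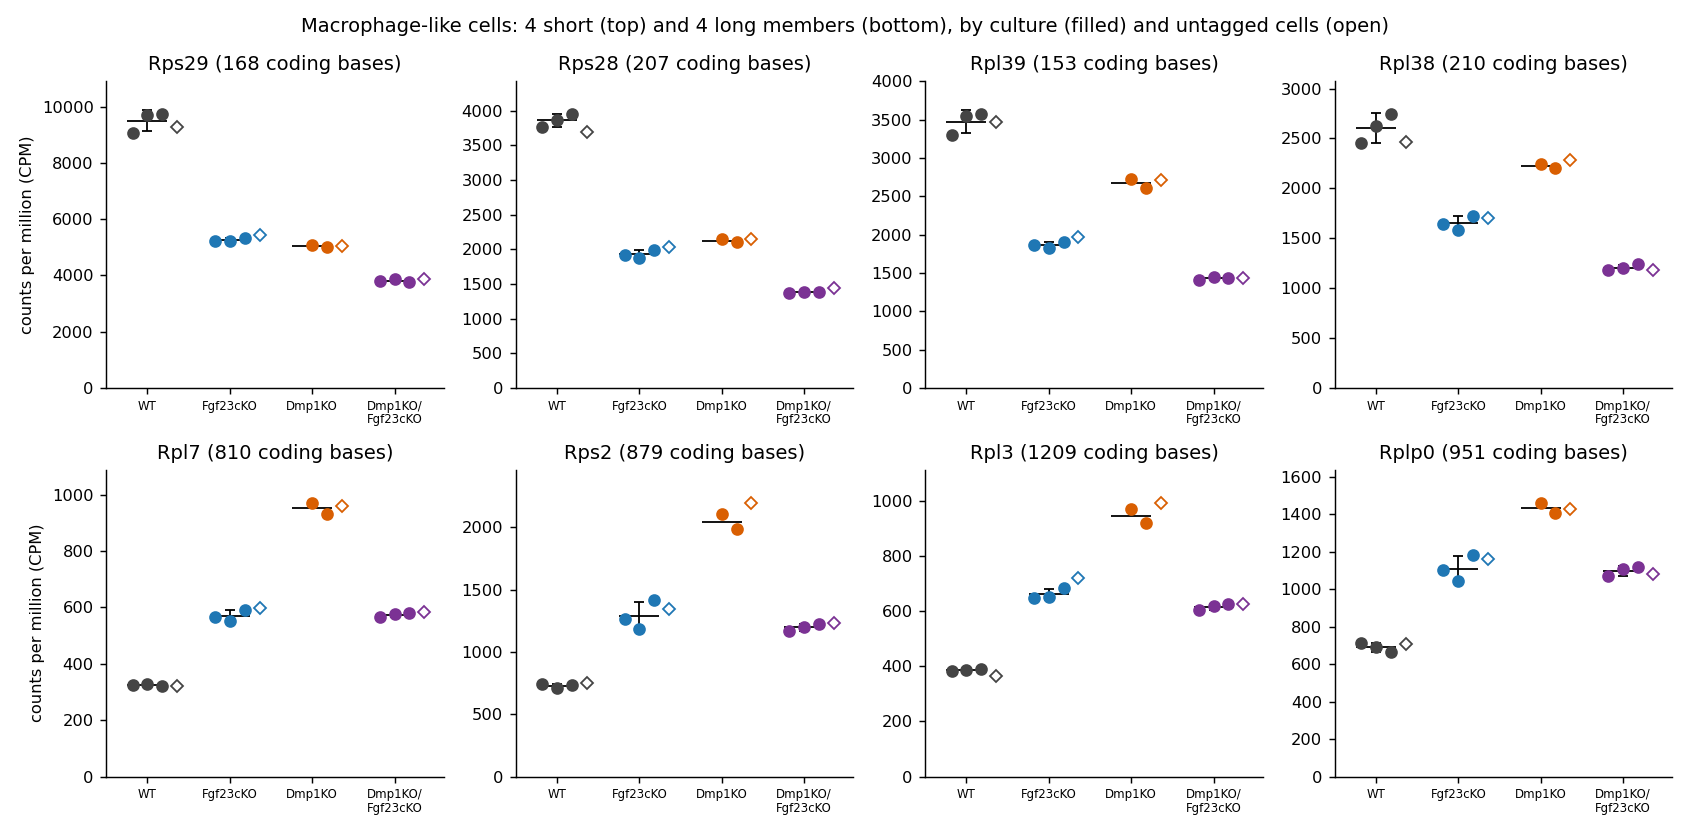
CPM (vertical axis) in macrophage-like cells by genotype (horizontal axis) for 4 short members (Rps29, Rps28, Rpl39 and Rpl38, top) and 4 long members (Rpl7, Rps2, Rpl3 and Rplp0, bottom). Filled points are tagged cultures, open diamonds untagged cells and bars the mean ± SD where 3 cultures were summed (the mean alone for 2); WT is the highest genotype for the short members and the lowest for the long ones, as with Rpl7 at 322 to 327 in WT and 933 to 972 in Dmp1KO.

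The split followed coding length across the members. With length cuts chosen after seeing the data, the 12 tested members of at most 300 bases had a median log2 fold change of -0.15 in Dmp1KO compared with WT, the 30 of 301 to 450 bases 0.55, the 19 of 451 to 600 bases 0.99 and the 23 longer ones 1.16. All 23 of the longest group were higher, against 2 higher and 5 lower in the shortest. In Fgf23cKO compared with WT the medians were -0.68, -0.14, 0.09 and 0.29, with 11 of 12 lower in the shortest group and 18 of 23 higher in the longest. In Dmp1KO/Fgf23cKO compared with WT they were -1.05, -0.38, 0.05 and 0.24, with 12 of 12 lower and 16 of 23 higher. Without WT in the comparison these cells had no such gradient: Dmp1KO/Fgf23cKO compared with Dmp1KO gave -0.88, -0.98, -0.97 and -0.88.

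Across the 84 members, Spearman's rho between log2 fold change and coding length was 0.78 in Dmp1KO, 0.75 in Fgf23cKO and 0.84 in Dmp1KO/Fgf23cKO compared with WT, and 0.11 in Dmp1KO/Fgf23cKO compared with Dmp1KO. In pre-osteoblast 1-like cells the values were 0.73, 0.73, 0.81 and 0.54, in osteoprogenitor-like cells 0.69, 0.69, 0.71 and 0.41, and in cycling-like cells 0.78, 0.84, 0.86 and 0.37. The points are genes measured in the same libraries, so these values describe the libraries and carry no test. Transcript length gave 0.49, 0.53, 0.54 and 0.09, and mean CPM -0.31, -0.47, -0.42 and -0.31, in the same order. Over 11498 other genes the rho with coding length was -0.15, 0.02, 0.06 and 0.26. Among other genes above 100 CPM, those of at most 300 coding bases had medians of 0.04, -0.33, -0.55 and -0.58, and those of over 600 bases -0.05, 0.07, 0.10 and 0.12. A TOP tract did not mark the split in the same way, with medians of 0.79 for 27 members with one and 0.71 for 37 without in Dmp1KO compared with WT, and of -0.36 and -0.18 in Dmp1KO/Fgf23cKO compared with WT.

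**Figure D3:**
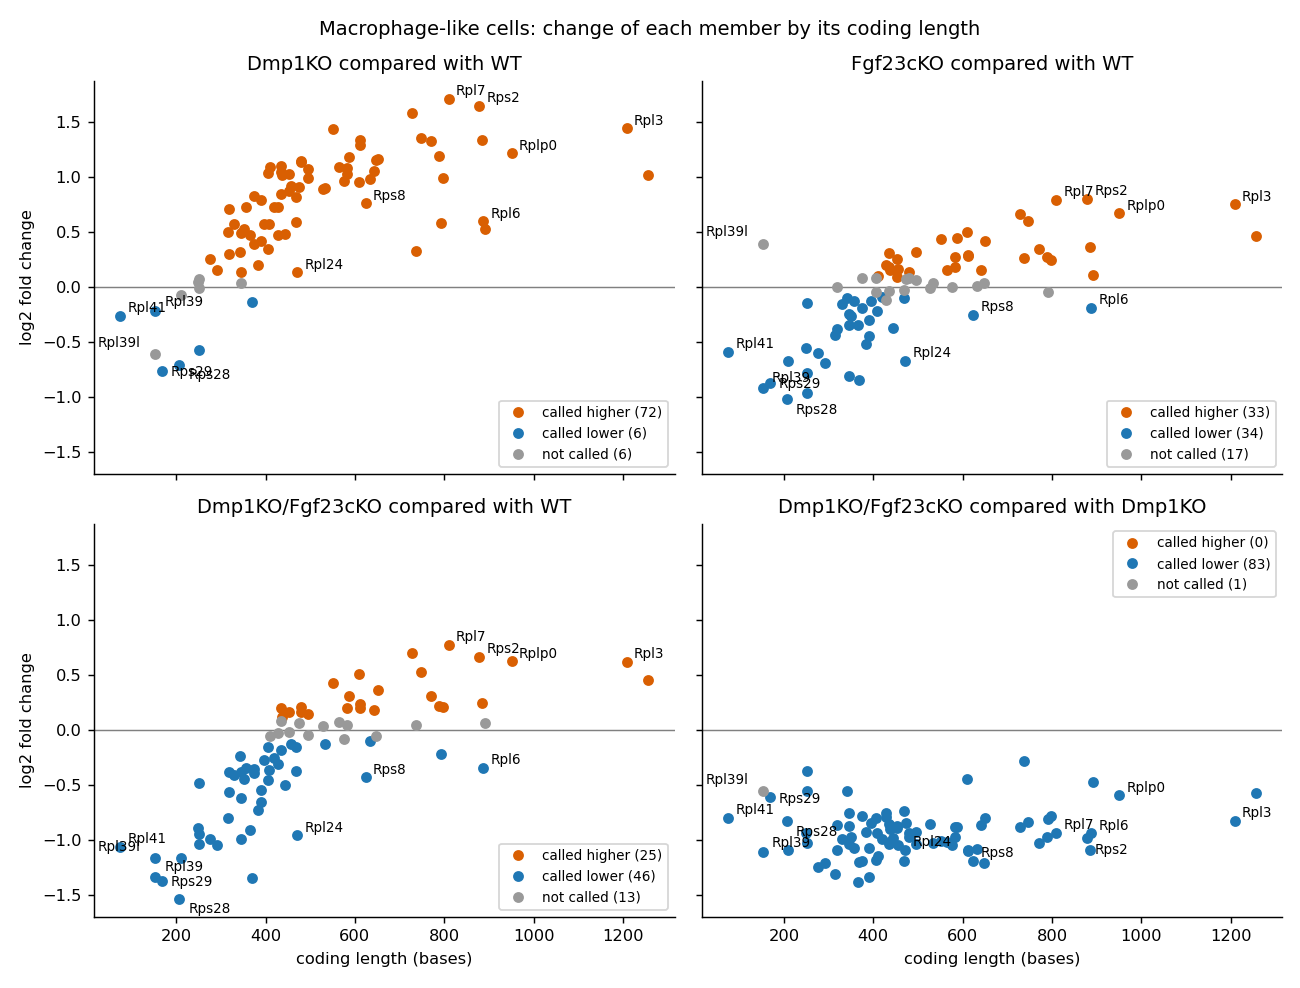
Log2 fold change in macrophage-like cells (vertical axis) against coding length in bases (horizontal axis) for the 84 members tested, in 4 comparisons, with colour for members called higher, lower or neither at an adjusted p under 0.1. In the 3 comparisons with WT the points climb from short to long members, with rho of 0.75 to 0.84, and in Dmp1KO/Fgf23cKO compared with Dmp1KO they lie flat below 0, with rho of 0.11.

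Summed over the 12 shortest members, the short members' part of all member UMIs set WT apart in every class. In macrophage-like cells it was 30.6 to 31.8% in WT, 21.2 to 21.7% in Fgf23cKO, 18.1 to 18.2% in Dmp1KO and 18.2 to 18.6% in Dmp1KO/Fgf23cKO. In osteoprogenitor-like cells it was 28.0 to 29.3, 17.8 to 18.8, 17.0 to 17.6 and 15.5 to 16.8%, in pre-osteoblast 1-like cells 27.1 to 27.5, 18.1 to 18.8, 16.7 to 17.1 and 15.4 to 16.2%, and in cycling-like cells 27.4 to 28.2, 18.8 to 19.5, 16.9 to 17.1 and 15.9 to 16.5%. No WT culture overlapped a knockout culture in these 4 classes.

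The part stayed apart in cells of 10000 to 20000 UMIs, a comparison added after seeing the data. There the macrophage-like cells of the WT cultures gave 29.3, 29.998 and 30.8%, those of Fgf23cKO 22, 22.7 and 22.5%, those of Dmp1KO 19.2 and 19.1%, and those of Dmp1KO/Fgf23cKO 19.1, 18.7 and 18.9%. Over macrophage-like cells of any depth, the part of the members of over 600 coding bases went the other way, from 14.2 to 15.0% in WT to between 19.6 and 21.9% in the knockouts. Also at any depth, short genes that are no members took 8.01 to 8.63% of the other UMIs in WT, 6.77 to 7.01% in Fgf23cKO, 8.18 to 8.23% in Dmp1KO and 6.03 to 6.14% in Dmp1KO/Fgf23cKO, so Dmp1KO lay within the WT range for them. Since each genotype was 1 reaction, WT as a genotype and WT as a library cannot be told apart here.

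**Figure D4:**
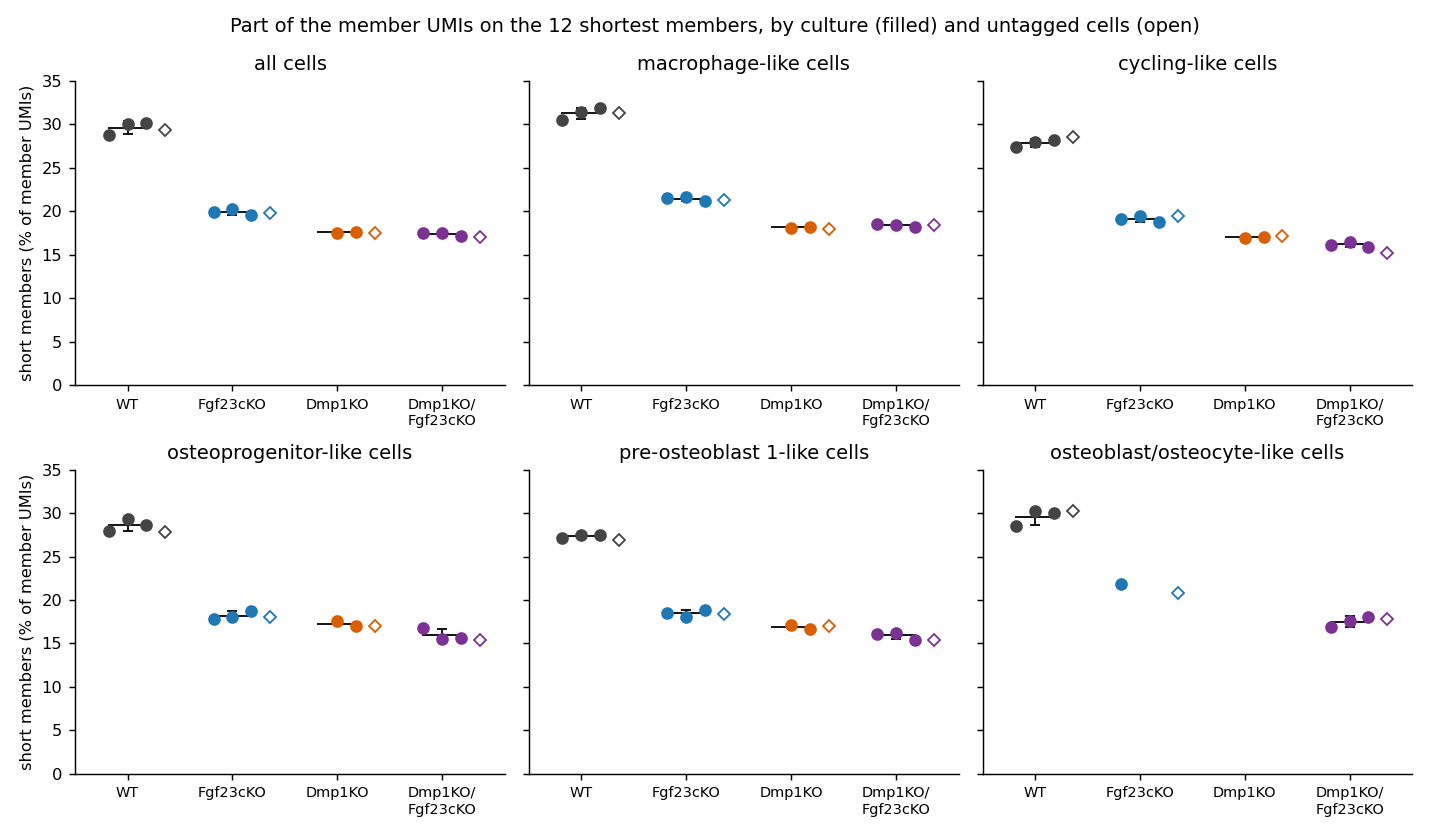
The 12 shortest members' part of all member UMIs in percent (vertical axis) by genotype (horizontal axis), for all cells and 5 classes. Filled points are tagged cultures, open diamonds untagged cells and bars the mean ± SD where 3 cultures were summed (the mean alone for 2); the WT cultures stand above the others in every panel, at 30.6 to 31.8% in macrophage-like cells against 18.1 to 21.7% in the knockouts.

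By role, the acidic stalk, which recruits the GTPases of elongation, was split between its base and its arms in comparisons with WT. In macrophage-like cells the base protein gene Rplp0 (chr5:115559467-115563727, plus strand, coding length 951) was at 715, 690 and 666 CPM in WT, 1104, 1044 and 1181 in Fgf23cKO, 1463 and 1408 in Dmp1KO, and 1069, 1109 and 1121 in Dmp1KO/Fgf23cKO. The arm protein gene Rplp2 was at 1937, 1880 and 1952 CPM in WT, 1497, 1512 and 1580 in Fgf23cKO, 1905 and 1877 in Dmp1KO, and 1293, 1302 and 1301 in Dmp1KO/Fgf23cKO. Against WT in Dmp1KO/Fgf23cKO, Rplp0 rose by 0.63 (SE 0.046, adjusted p = 2.606e-09), whereas Rplp1 fell by 0.24 (SE 0.038, adjusted p = 4.233e-05) and Rplp2 by 0.61 (SE 0.037, adjusted p = 1.889e-10), on the log2 scale. In Dmp1KO compared with WT the log2 fold changes after TMM scaling were 1.22, 0.32 and 0.13. For Rplp2 that sign rests on the scaling, since its CPM in the Dmp1KO cultures overlapped WT, and over 24 alternatives its value ran from -0.16 to 0.19. In Dmp1KO/Fgf23cKO compared with Dmp1KO, Rplp0, Rplp1 and Rplp2 moved together, with log2 fold changes of -0.59, -0.56 and -0.75. Whether this difference between base and arms against WT was more than the coding-length gradient described above was not tested.

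Rpl5 and Rpl11 form the 5S particle, which also binds MDM2 when ribosome assembly is disturbed. Rpl5 was at 534, 544 and 533 CPM in WT and 696 and 695 in Dmp1KO, and Rpl11 at 1070, 1089 and 1086 in WT and 1839 and 1783 in Dmp1KO. Both rose, by 0.53 (SE 0.042, adjusted p = 3.481e-09) and 0.90 (SE 0.046, adjusted p = 9e-12) on the log2 scale. In Dmp1KO/Fgf23cKO compared with Dmp1KO they fell by 0.47 (SE 0.042) and 1.03 (SE 0.046).

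Rpsa, of the small-subunit head and also known as a laminin receptor, was at 814, 786 and 777 CPM in WT, 1026, 943 and 1122 in Fgf23cKO, 1853 and 1735 in Dmp1KO, and 950, 971 and 994 in Dmp1KO/Fgf23cKO. Rps6, the substrate of the S6 kinases, was at 374, 351 and 359 CPM in WT, 555, 534 and 575 in Fgf23cKO, 847 and 810 in Dmp1KO, and 519, 545 and 547 in Dmp1KO/Fgf23cKO. Both were lowest in WT and highest in Dmp1KO without overlap, and they rose in Dmp1KO compared with WT by 1.34 (SE 0.057, adjusted p = 7.983e-13) and 1.36 (SE 0.048, adjusted p = 1.105e-13). Rps27a, which is made as a fusion with ubiquitin, was at 1928, 1959 and 1980 CPM in WT, 1835, 1714 and 1983 in Fgf23cKO, 3171 and 2996 in Dmp1KO, and 1521, 1587 and 1578 in Dmp1KO/Fgf23cKO. It rose by 0.81 in Dmp1KO (SE 0.052, adjusted p = 1.921e-10) and fell by 0.37 in Dmp1KO/Fgf23cKO (SE 0.048, adjusted p = 2.975e-06) on the log2 scale against WT, while its Fgf23cKO cultures overlapped WT.

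Around the exit tunnel, Rpl4 and Rpl17 rose in Dmp1KO compared with WT by 1.02 (SE 0.048) and 1.43 (SE 0.047) on the log2 scale, against the fall of 0.22 (SE 0.047, adjusted p = 0.0005092) for Rpl39. Rpl39 is among the shortest members, and this contrast was not tested apart from coding length. Rps19, Rps14 and Rps26, small-subunit genes known from human anaemias, had log2 fold changes of 1.05, 1.03 and 0.04 in the same comparison, the last with an adjusted p of 0.5818. Between Dmp1KO/Fgf23cKO and Dmp1KO, Rpl22l1 fell by 1.38 (SE 0.052, adjusted p = 2.799e-13) and Rps15a by 1.33 (SE 0.050). The value of Rpl22l1 ran from -1.49 to -0.35 over 24 alternatives, the latter in cluster 2, which was left out of the macrophage-like cells.

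In osteoprogenitor-like cells the tagged cultures of all 3 knockouts showed a larger part of ribosomal protein mRNA than WT, and a smaller part of Malat1. The pair of knockouts that was compared gave no call among the members. Of 84 members, 64 were higher in Dmp1KO, 66 in Fgf23cKO and 66 in Dmp1KO/Fgf23cKO compared with WT, where 8.56, 10.6 and 14.1% of 5021 genes tested were higher and 3.6, 7.73 and 10% were lower. The medians were 1.10, 1.08 and 1.10. TMM factors in this class were 1.23 to 1.33 in WT and 0.79 to 1.01 in the knockouts, which raises these fold changes above the ratios of CPM. Rps29 was the sole member called lower, in Dmp1KO/Fgf23cKO, by 0.49 (SE 0.18, adjusted p = 0.08235), a call that held in 10 of 21 alternatives, with values from -1.12 to -0.21. In Dmp1KO/Fgf23cKO compared with Dmp1KO no member was called by edgeR or DESeq2, 0 had an unadjusted p under 0.05, and 1.59% of all genes were higher and 0.836% lower.

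Rpl7 in these cells was at 601, 451 and 469 CPM in WT, 1234, 1893 and 1781 in Fgf23cKO, 1632 and 1742 in Dmp1KO, and 1210, 1569 and 1556 in Dmp1KO/Fgf23cKO. Rplp0 was at 1650, 1285 and 1639 CPM in WT, 3735, 5453 and 4842 in Fgf23cKO, 4224 and 4734 in Dmp1KO, and 4344, 5805 and 5679 in Dmp1KO/Fgf23cKO. Every knockout culture exceeded every WT culture for both, and the untagged WT cells, at 961 and 2435 CPM, lay between. Rpl7 rose by 2.13 (SE 0.28, adjusted p = 0.000909) in Dmp1KO and by 2.07 in Fgf23cKO and in Dmp1KO/Fgf23cKO, and Rplp0 by 1.95, 1.995 and 2.35, on the log2 scale against WT.

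The length gradient was present here too. The members of at most 300 coding bases had medians of 0.22, 0.36 and 0.26 in Dmp1KO, Fgf23cKO and Dmp1KO/Fgf23cKO compared with WT, with 0, 2 and 0 of 12 higher, and those of over 600 bases 1.40, 1.38 and 1.54, with 22 of 23 higher in each. Without the third Dmp1KO culture the count called in Dmp1KO compared with WT was 32. Scaling by library size alone shifted the median of all genes from -0.09 to -0.54 in Dmp1KO, from -0.02 to -0.46 in Fgf23cKO and from -0.09 to -0.70 in Dmp1KO/Fgf23cKO compared with WT, and changed the calls in the last from 66 higher and 1 lower to 44 and 9.

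In pre-osteoblast 1-like cells, with 14 to 43 cells per culture, the members took 13.5% ± 1.24 (SD, n = 3) of UMIs in WT, 14.4% ± 1.47 (n = 3) in Fgf23cKO, 14.97 and 16.4% in the Dmp1KO cultures and 12.7% ± 0.126 (n = 3) in Dmp1KO/Fgf23cKO, so that Fgf23cKO and Dmp1KO/Fgf23cKO overlapped WT and Dmp1KO began just above the highest WT culture, at 14.94%. The median per cell was 18596 to 20332 UMIs in WT, 115858 to 139370 in Fgf23cKO, 49936 to 52466 in Dmp1KO and 101120 to 112634 in Dmp1KO/Fgf23cKO. The part of depth in these results was not tested. Compared with WT, 42 members were higher and 7 lower in Dmp1KO, 34 and 7 in Fgf23cKO, and 25 and 18 in Dmp1KO/Fgf23cKO, against 6.1 and 6.05%, 6.47 and 5.89%, and 7.76 and 7.69% of 11669 genes. Rpl7 rose by 1.20 (SE 0.13, adjusted p = 0.001005) in Dmp1KO, and Rps29 and Rps28 fell by 0.92 (SE 0.12, adjusted p = 0.001663) and 0.83 (SE 0.14, adjusted p = 0.004774) on the log2 scale. Rps27rt, the retrocopy of Rps27, fell by 1.09 (SE 0.19, adjusted p = 0.005594). In Dmp1KO/Fgf23cKO compared with Dmp1KO 2 members were lower, against 0.531% of all genes. The counts rested on single cultures: Dmp1KO compared with WT gave 29 members without the second Dmp1KO culture and 15 without the third, Fgf23cKO compared with WT gave 27 without the first WT culture, and Dmp1KO/Fgf23cKO compared with Dmp1KO gave between 0 and 7.

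Osteoblast/osteocyte-like cells could be compared only between Dmp1KO/Fgf23cKO and WT, since a single Fgf23cKO culture and no Dmp1KO culture held at least 10 of them. Osteoblast markers took 12.8 to 17.6% of their UMIs in WT and 12.2 to 13.3% in Dmp1KO/Fgf23cKO, and macrophage markers 0.286 to 0.327% and 0.183 to 0.560%. Dmp1, the osteocyte matrix gene whose loss defines the knockout, was at 722, 914 and 1240 CPM in WT and at 34.1, 15.5 and 25.4 in Dmp1KO/Fgf23cKO. The members took 13.5% ± 0.170 (SD, n = 3) of UMIs in WT and 13.8% ± 1.25 (n = 3) in Dmp1KO/Fgf23cKO, which overlapped, and 12.9% in the Fgf23cKO culture. The median per cell was 17636 to 29857 UMIs in WT and 83978 to 126703 in Dmp1KO/Fgf23cKO, and the part of depth was not tested.

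Of the 84 members, 18 were higher and 17 lower, where 5.3 and 6.2% of 8611 genes were. The 12 shortest members were all lower, with a median of -0.83, and of the 23 longest 14 were higher, with a median of 0.56. Rps28 was at 4983, 5087 and 5206 CPM in WT and 2123, 2432 and 2938 in Dmp1KO/Fgf23cKO, without overlap, and fell by 1.15 (SE 0.17, adjusted p = 0.003664). Rpl3 was at 436, 402 and 408 CPM in WT and 859, 1031 and 918 in Dmp1KO/Fgf23cKO, and rose by 1.05 (SE 0.14, adjusted p = 0.002786). The number called was 23, 17 and 15 without WT culture 1, 2 or 3 and 20 without Dmp1KO/Fgf23cKO culture 2, and scaling by library size alone gave 31 higher and 16 lower.

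The member that changed most in these cells was Rpl39l, a copy of Rpl39 best known from male germ cells (ENSMUSG00000039209, chr16:10170226-10174911, plus strand, 3 exons, coding length 153). WT cultures gave 137, 162 and 312 of its UMIs from 31, 23 and 47 cells, or 225, 356 and 227 CPM. Dmp1KO/Fgf23cKO cultures gave 32, 43 and 9 UMIs from 18, 29 and 10 cells, or 21.4, 14.2 and 10.4 CPM. The groups did not overlap, and the untagged samples, at 204 and 38.0 CPM, lay on the same sides.

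Its log2 fold change was -4.22 (SE 0.28, adjusted p = 3.996e-05, edgeR), and 7 of 8611 genes tested had a lower one, Dmp1 among them. Over 17 alternatives it lay between -4.56 and -3.77 and was called in each. The Fgf23cKO culture with enough cells gave 163 CPM from 271 UMIs, and the untagged Fgf23cKO cells 293 CPM from 403 UMIs (44 cells). The Fgf23cKO cultures with 7 and 4 cells gave 246 and 96.2 CPM. The Dmp1KO cultures, with 1 and 5 cells, gave 344 and 131 CPM, and the untagged Dmp1KO cells 370.5 CPM (9 cells). All of these lay above the Dmp1KO/Fgf23cKO samples, but the cells were too few to test which allele the low level goes with. Of the 12 osteoblast markers tested, Dmp1 and Ibsp were lower and Phex was higher, and Col1a1 had a log2 fold change of -0.28 with an adjusted p of 0.3224. Its parent Rpl39 fell by 1.04 (SE 0.16, adjusted p = 0.004236), from 4887, 5170 and 4804 CPM to 2296, 2632 and 2950.

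Outside that class, Rpl39l was at 233, 152 and 203 CPM in pre-osteoblast 1-like WT cells, 308, 199 and 145 in Fgf23cKO, 190 and 164 in Dmp1KO, and 133, 130 and 68.2 in Dmp1KO/Fgf23cKO. The Dmp1KO/Fgf23cKO cultures were the lowest, with a log2 fold change of -0.84 (SE 0.30, adjusted p = 0.0976) against WT, a call that held in 12 of 21 alternatives. In osteoprogenitor-like cells the WT cultures alone ranged from 54.7 to 581 CPM, on 4 to 57 UMIs. In macrophage-like cells no sample exceeded 3.21 CPM, a level at which free RNA and expression cannot be told apart.

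**Figure D5:**
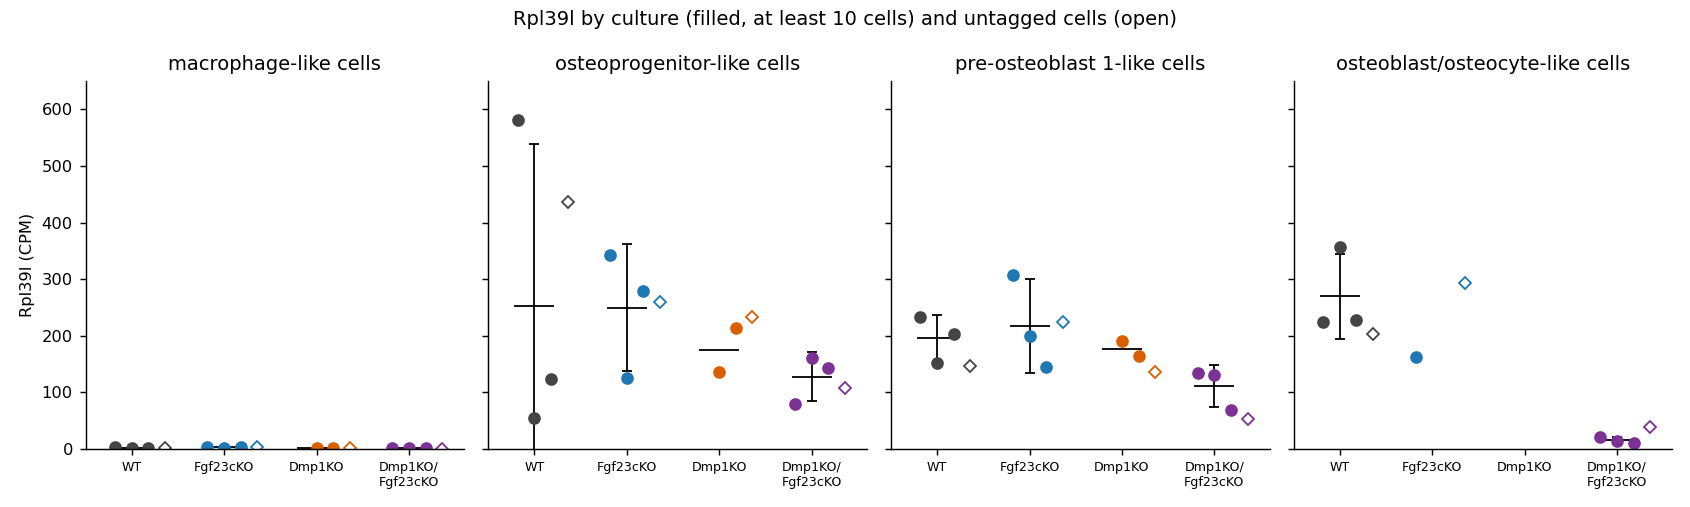
Rpl39l in CPM (vertical axis) by genotype (horizontal axis) in osteoblast/osteocyte-, pre-osteoblast 1-, osteoprogenitor- and macrophage-like cells. Filled points are tagged cultures, open diamonds untagged cells and bars the mean ± SD where 3 cultures were summed (the mean alone for 2); in osteoblast/osteocyte-like cells the WT cultures are at 225 to 356 and the Dmp1KO/Fgf23cKO cultures at 10.4 to 21.4.

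The balance of other copies with the parent gene also varied between genotypes, though no test here could pass. In macrophage-like cells Rpl22l1 made up 22.7% ± 0.489 of the Rpl22 and Rpl22l1 UMIs in WT, 24.9% ± 0.628 in Fgf23cKO, 26.1 and 26.2% in the Dmp1KO cultures and 20.5% ± 0.7104 in Dmp1KO/Fgf23cKO. Over all cells the direction for this pair was reversed, with Dmp1KO/Fgf23cKO 2.817 percentage points above WT and 1.477 above Dmp1KO. Rps27l, a p53-responsive copy, made up 18.2% ± 0.416 of the Rps27 and Rps27l UMIs in WT and 25.6% ± 0.503 in Fgf23cKO, 19.2 and 18.9% in Dmp1KO and 24.6% ± 0.656 in Dmp1KO/Fgf23cKO. Rpl36al made up 49.5, 43.0, 42.4 and 46.2% of its pair on average. Of 20 two-sided exact permutation tests over 5 pairs, 17 compared groups that did not overlap, but with 3 against 3 or 3 against 2 cultures the smallest p is 0.1 and the lowest adjusted p was 0.125, so none could pass. The pairs include Rpl7 and Rpl7l1, which match by name only. The share of non-overlap over all genes is not given. Among all genes tested in these cells, 33.6% were higher and 31.3% lower in Dmp1KO compared with WT in the edgeR fit.

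The members also differed between classes within a culture. Rpl22l1 had the highest ratio to macrophage-like cells in 3 classes, with mean log2 ratios of 0.84 in cycling-like, 1.34 in pre-osteoblast 1-like and 1.44 in osteoblast/osteocyte-like cells, and was higher in each of the 11, 11 and 7 cultures. In osteoprogenitor-like cells the highest were Rpsa, Rps26 and Rplp0, at 1.85, 1.81 and 1.78. In pre-osteoblast 1- and osteoblast/osteocyte-like cells Rps29 was at the other end, lower in every culture by 0.80 and 0.81 on average on the log2 scale. Rpl41, the shortest member, had a log2 ratio of 1.28 in osteoblast/osteocyte-like cells, so these short members differed in their pattern between classes.

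A further 3 lists were set beside the members in macrophage-like cells. Other TOP mRNAs, for translation factors and the like, gave 20 of 22 higher and 0 lower in Dmp1KO compared with WT (median 0.86) and 21 of 22 lower in Dmp1KO/Fgf23cKO compared with Dmp1KO (median -0.72). Among them the elongation factor Eef1a1 rose by 1.07 (SE 0.041, adjusted p = 2.364e-13) and then fell by 0.71 (SE 0.041, adjusted p = 5.334e-11), and Tpt1 rose by 1.28 (SE 0.039) and fell by 0.38 (SE 0.039), on the log2 scale. Mitochondrial ribosomal protein genes gave 62 of 78 higher and 0 lower (median 0.57), and then 72 of 78 lower (median -0.53). Ribosome biogenesis genes were mixed, with 24 of 42 higher and 6 lower (median 0.29), then 5 higher and 23 lower (median -0.16). Among all genes 33.6% were higher and 31.3% lower in the former comparison, and 26.8 and 32.1% in the latter.

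Compared with WT, Fgf23cKO gave 15 higher and 4 lower of the 22 other TOP mRNAs, 28 and 12 of the mitochondrial genes and 17 and 9 of the biogenesis genes, and Dmp1KO/Fgf23cKO gave 14 and 5, 22 and 19, and 17 and 11. The shares over all genes were 24.5 and 23.3% in the former and 28.7 and 29% in the latter, so that the mitochondrial genes in Dmp1KO/Fgf23cKO were called at about the background. Larp1, whose protein binds the TOP tract, fell by 0.28 (SE 0.054, adjusted p = 0.0002408) in Dmp1KO compared with WT and was higher by 0.36 (SE 0.051, adjusted p = 7.16e-06) in Dmp1KO/Fgf23cKO compared with Dmp1KO. In osteoprogenitor-like cells 16, 17 and 17 of the 22 other TOP mRNAs were higher in Dmp1KO, Fgf23cKO and Dmp1KO/Fgf23cKO compared with WT, with no member of that list lower. Mitochondrial ribosomal protein genes gave 11 higher and 1 lower of 57 tested in Dmp1KO, 10 and 0 in Fgf23cKO and 5 and 2 in Dmp1KO/Fgf23cKO there, and biogenesis genes at most 2 in either direction of 22 tested, beside 8.56 to 14.1% higher and 3.6 to 10% lower among all genes. In pre-osteoblast 1-like cells the other TOP mRNAs gave 15 higher and 0 lower, 14 and 0, and 12 and 2, the mitochondrial genes 18 and 3, 10 and 3, and 7 and 9, and the biogenesis genes 5 and 4, 7 and 2, and 10 and 4, beside 6.1 to 7.76% higher and 5.89 to 7.69% lower among all genes. In osteoblast/osteocyte-like cells of Dmp1KO/Fgf23cKO compared with WT, 8 other TOP mRNAs were higher and 2 lower, 0 mitochondrial genes were higher and 3 lower, and 2 biogenesis genes were higher and 4 lower, beside 5.3 and 6.2% of all genes.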

How the data were processed

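Single-cell 3′ RNA-Seq libraries of bone marrow stromal cell cultures were analysed. The authors counted UMIs per gene and cell with Cell Ranger (7.0.1 per the file headers), assigned barcodes to cultures by tag and removed multiplets between tags, and deposited the counts without normalization. The submitters' processing notes also name mm10 and Seurat. Doublets within a culture remain, and no doublet caller was run. Clustering used Seurat 5.3.0 on values transformed by sctransform 0.4.2 under R 4.3.3 (3000 variable genes, 30 principal components, resolution 0.8) with the members left out and no filter on cells, and clusters were named "X-like" from marker lists. Skeletal clusters needed 3 or more markers among their 10 leading genes, cycling-like clusters 6 or more markers at over 2 times the level in other cells, and macrophage-like clusters 8 or more markers at 5 times their level in the skeletal clusters or above. These rebuilt classes can differ from those of the study. Macrophage-like cells leave out clusters with leading genes of another type.

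For each class, the counts of a tagged culture with 10 or more such cells were added up and fitted with edgeR 4.0.16 (TMM factors, its filter on low counts, quasi-likelihood test, all genotypes of a class together, Benjamini-Hochberg adjustment over all genes tested, threshold 0.1) for 4 comparisons. CPM are UMIs scaled to a common total per sample and class. Shares are percent of UMIs. Class ratios used members with at least 50 CPM and a pseudocount of 1 CPM. The code was tested on simulated data. Positions and lengths are from GENCODE M21. Sample depth ran from 9518928 to 72482185 UMIs per tagged culture and counting error matters most for Rpl39l.

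The members and lists were chosen with earlier results of these data known. Named members were the 8 with the largest change among called members without overlap per class and comparison, the 10 with the highest CPM, members fixed by role, pairs of copies, the 8 farthest from the members' median, and the 5 at either end of each class ratio. Alternatives were RLE factors, library size only, no filter, DESeq2 1.42.0, an adjusted p under 0.05, a filter on cells (500 genes, 20% mitochondrial UMIs), untagged samples as replicates, the replicate block, the members kept in the clustering, a depth window of 10000 to 20000 UMIs, and each culture left out. TMM without the members, other cell groups and the depth window for short members were chosen after seeing the data. The first Dmp1KO culture and bulk RNA-Seq were not analysed here. Python 3.11.15 with numpy 2.4.6, pandas 2.3.3, scipy 1.17.1 and matplotlib 3.10.9 was used.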

Additional observations from a re-analysis of the deposited data

Results flagged for a closer look

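Groups of 3 tagged cultures and the untagged sample were checked for a highest or lowest sample far from the rest. In 5 of 34 groups its gap to the nearest other, divided by the range of the group, was above Dixon's 95% critical value. Chance passes that value in about 1 of 20 groups of independent samples. Here the untagged sample comes from the pool of the tagged cultures and the groups share cells, so that rate is only a rough guide. The ribosomal protein share over all cells was 12.05% in the second WT culture, against 12.58 to 12.68% in the other WT samples. In macrophage-like cells it was 8.597% in the first Dmp1KO/Fgf23cKO culture, against 8.795 to 8.833%, and in pre-osteoblast 1-like cells 12.54% in the same culture, against 12.75 to 12.77%. In osteoprogenitor-like cells the untagged WT cells stood at 24.46%, against 16.58 to 17.29% in the tagged WT cultures. The short members' part of member UMIs was 16.77% in osteoprogenitor-like cells of the first Dmp1KO/Fgf23cKO culture, against 15.45 to 15.62%.

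The difference from WT had opposite signs in osteoprogenitor- and macrophage-like cells. In Fgf23cKO the share was 7.476 percentage points above WT in the former and differed by -1.414 points in the latter, a gap of 8.891 points. In Dmp1KO/Fgf23cKO the values were 4.915 and -2.516 points, a gap of 7.43 points. Neither gap was tested.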

How the results depend on the processing

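Of the counts and shares that answer a comparison, 184 stayed within 1.5 times the count or within the spread under the alternatives, 28 moved and 1 changed sign. In pre-osteoblast 1-like cells, Dmp1KO/Fgf23cKO compared with Dmp1KO gave 2 members, 4 with library size only, 9 without the filter, 19 with DESeq2, 0 at an adjusted p under 0.05 and 36 with untagged samples. Counts under an alternative or with a culture left out, here and elsewhere, are given without the share of all genes called. They show only how far the counts moved and cannot be judged against the background. Share differences in cells of 10000 to 20000 UMIs were, for Dmp1KO, Fgf23cKO and Dmp1KO/Fgf23cKO compared with WT and the last with Dmp1KO, 1.179, -2.27, -3.002 and -4.18 points over all cells and 1.765, -2.817, -4.492 and -6.257 in macrophage-like cells. The median of single cells gave 3.582, -1.546 and -6.158 over all cells for Dmp1KO and Fgf23cKO compared with WT and Dmp1KO/Fgf23cKO compared with Dmp1KO. In other cell groups in place of macrophage-like cells, cluster 4 gave -0.02072 (Dmp1KO), -2.679 (Dmp1KO/Fgf23cKO) and -2.658 (against Dmp1KO), cycling-like cells 1.239, -1.102 (Fgf23cKO) and -3.832 (against Dmp1KO), cluster 2 -0.2806 (Fgf23cKO), -1.205 (Dmp1KO/Fgf23cKO) and -4.54 (against Dmp1KO), and all clusters with macrophage markers 2.851 (Dmp1KO) and -2.92 (Dmp1KO/Fgf23cKO). With untagged samples 17 of the copy tests passed, where 0 could before. Untagged cells come from the same pool and are no further culture, so p values with them are too small. The Rpl22 pair over all cells reversed to 2.817 (Dmp1KO/Fgf23cKO compared with WT) and 1.477 (with Dmp1KO), and the Rpl39 pair compared with WT to 0.08555 over all cells and, with a main value of -0.001824, lay between -0.0123 and 0.01373 with a culture left out, above 0 without WT culture 1 (0.01373) and Dmp1KO/Fgf23cKO culture 3 (0.006812). The causes were not tested.

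With each culture left out, members called ranged, in the order Dmp1KO, Fgf23cKO and Dmp1KO/Fgf23cKO compared with WT and the last with Dmp1KO, over 77 to 79, 61 to 66, 70 to 74 and 83 in macrophage-like cells, 32 to 69, 58 to 70, 58 to 70 and 0 in osteoprogenitor-like cells, 15 to 50, 27 to 42, 32 to 44 and 0 to 7 in pre-osteoblast 1-like cells, and 15 to 40 in osteoblast/osteocyte-like cells. Share differences ranged over 2.402 to 2.676, -1.008 to -0.7335, -2.496 to -2.167 and -5.007 to -4.749 points over all cells and 3.154 to 3.642, -1.64 to -1.235, -2.602 to -2.447 and -6.157 to -5.67 in macrophage-like cells. With the replicate number as a block, members called were 78, 66, 71 and 83 in macrophage-like cells, 57, 66, 63 and 0 in osteoprogenitor-like cells and, in the last comparison of pre-osteoblast 1-like cells, 0. No pairing by number was seen, as the correlation of deviations in same-numbered samples was -0.26 to 0.09, over 0.1 in 0 of 15 pairs. Deviations within so few cultures per genotype depend on each other, so these values cannot exclude pairing. Depth limits the members of osteoprogenitor-like cells, with 19 to 68 cells per culture, and Rpl39l, and it differs between genotypes.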
